A study of Mus musculus with 9 samples.

Results

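Gene expression after hPTH(1-34) was set against all 6 arrays of the series that had not received this peptide, and the genes that passed the test against this pool, but not against vehicle alone, were described one by one. The comparison used all 9 arrays of the study, 3 with hPTH(1-34) against 3 with vehicle and 3 with bPTH(7-34), and it read 22180 genes, each from the brightest of its transcript clusters with a single gene symbol. Of these, 251 passed against the pool, and 147 of the 251 did not pass against vehicle. These 147 are called gained genes here. All arrays held RNA of primary osteoblasts, the bone-forming cells, from the calvaria of C57BL/6 mice aged 7 to 10 days. Cells at passage 2 were differentiated with ascorbic acid and beta-glycerophosphate from day 3, kept without serum for 24 h from day 10, and then exposed for 4 h. The groups were vehicle, 100 nM of human PTH(1-34), and 1 µM of a bovine PTH(7-34) amide with D-Trp and Tyr substitutions. Cells were prepared independently for each replicate per the series text, which leaves unsaid if a single preparation served all 3 treatments. The labels name no transgene or sort, so other cells of the calvarial digest could remain.

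Parathyroid hormone acts on osteoblasts through PTH1R, a receptor that couples to Gs, raises cAMP and activates protein kinase A, which in turn acts on CREB and on the salt-inducible kinases. The amino-terminal fragment PTH(1-34) is a full agonist and is used as a bone anabolic drug. Fragments that begin at residue 7 bind the receptor but lack the residues that drive its Gs signal, and they serve as antagonists of that signal. The pool holds 3 arrays with such a fragment, in substituted form, so its 6 arrays are not all untreated. Other actions of this fragment were not tested. In osteoblasts the cAMP branch is known for early induction of NR4A nuclear receptors, AP-1 factors and RANKL, and for effects on Wnt signalling, glucose metabolism and matrix turnover.

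Array medians ran from 1.67 to 1.76 on the log2 scale, and correlations were 0.977 to 0.982 within groups and 0.972 to 0.985 between groups. Arrays have no read depth, and their number limits the precision. A background limit of 1.68 was taken as the 95th percentile of 1105 olfactory receptor genes in the 6 reference arrays, and 5 gained genes had a reference mean under it (Apol11a, Gm16062, Lrrc10, Ppp4r4 and Ptgs2os). Of the osteoblast markers, the collagen gene Col1a1 read 12.28 and Col1a2 11.68 on average in the pool, while the osteocalcin gene Bglap (1.35) lay under the limit and the osteoblast transcription factor Sp7 (1.74) just above it. Macrophage and osteoclast markers ran from Ctsk (8.0) and Adgre1 (5.26) down to Itgam (3.07) and Ptprc (1.9), and 0 of 7 passed against the pool. Over all genes tested 1.13% passed, so 0 calls in marker sets this small say little about those cells. Tendon and fibroblast markers ran from Postn (11.47), Tnmd (9.98) and Prrx1 (9.44) down to Scx (4.72) and Mkx (3.60). Of these 5, Scx fell against the pool (-0.76 ± 0.09, limma adjusted p = 0.00644). Chondrocyte markers ran from Col2a1 (6.74) and Sox9 (6.65) down to Col10a1 (2.37) and Acan (1.78), and 0 of 4 passed. Of 6 measured adipocyte markers 0 passed and 5 were positive, with a summed level divided by 6 of 3.93 to 4.49 in the reference arrays and 4.10 to 4.87 in the hPTH(1-34) arrays. Their part in the gained genes was not tested. In bulk RNA, fewer cells of a type and less RNA per cell cannot be told apart.

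Against the pool, 171 genes rose (0.771%) and 80 fell (0.361%) at an adjusted p of 0.05 (limma, Benjamini-Hochberg over all genes), which is 1.13% of the genes tested. Against vehicle 73 rose (0.329%) and 33 fell (0.149%), in all 0.478%. Against bPTH(7-34), which was given at a higher dose than hPTH(1-34), 80 rose (0.361%) and 32 fell (0.144%), in all 0.505%. Between bPTH(7-34) and vehicle, the groups that make up the pool, limma called 0 genes, with 727 (3.28%) at an unadjusted p under 0.05. The pool called 104 of the 106 genes that passed against vehicle, added 147 (0.663% of the genes tested) and lost 2 (0.00902%). Of the 147, 99 rose (0.446%) and 48 fell (0.216%). All these comparisons share the hPTH(1-34) arrays, and the pool shares its reference arrays with the other 2, so the calls are not independent. The adjusted p-values chose the gained genes and are given for them as a description.

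**Figure D1:**
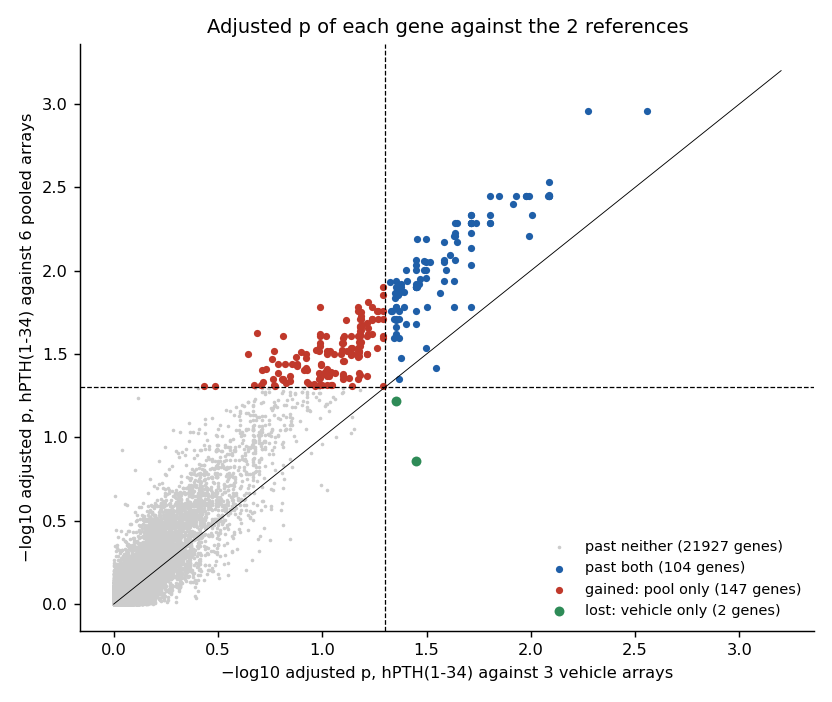
Each point is a gene, with −log10 of its adjusted p for hPTH(1-34) against the 3 vehicle arrays (horizontal) and against the 6 pooled arrays (vertical); dashed lines mark 0.05 and the diagonal marks equal values. The 147 gained genes (red) lie left of the vertical line and above the horizontal one, the 104 genes past both (blue) lie to the right of it, and the 2 lost genes (green) are Ctu1 and Olfr706.

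The gained genes lay close to the vehicle threshold. Their adjusted p against vehicle ran from 0.0511 to 0.370 (Eya3), with a median of 0.0805. It was under 0.1 for 91 genes and over 0.2 for 5. The median size of their difference against the pool was 0.76 on the log2 scale (0.35 to 2.48), against 1.08 for the 104 genes past both references. A difference of at least 2-fold was reached by 40 of the 147 (32 higher, 8 lower) and by 58 of the 104. For all 147 gained genes and all 104 others, the 3 hPTH(1-34) arrays lay beyond all 6 reference arrays, as they did for 5.93% of all genes tested. Gained genes were brighter than the average gene, with a median level over the 9 arrays of 5.62, against 2.21 over all genes and 5.99 for the 104.

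Dio2, the deiodinase that activates thyroid hormone, had the largest difference among the gained genes. It read 3.38, 1.83 and 3.13 with vehicle, 3.40, 2.78 and 1.97 with bPTH(7-34), and 4.72, 5.29 and 5.67 with hPTH(1-34) on the log2 scale. The hPTH(1-34) arrays were the 3 highest, and the reference arrays spread over more than 1 log2 unit in both of their groups. The rise was 5.57-fold (log2 difference 2.48 ± 0.40 SE, 6 against 3 arrays, limma adjusted p = 0.0246), with 2.45 ± 0.46 and adjusted p = 0.0672 against vehicle. A dimmer Dio2 cluster, with a mean of 1.41 over the 9 arrays and so under the background limit of 1.68, gave 0.07. Rdh10, the retinol dehydrogenase that begins retinoic acid synthesis, read 4.01, 3.86 and 3.83 with vehicle, 3.58, 3.18 and 3.49 with bPTH(7-34), and 4.85, 6.04 and 6.67 with hPTH(1-34). The groups did not overlap, and bPTH(7-34) lay below vehicle in every array. The Rdh10 rise was 4.58-fold (2.20 ± 0.32, adjusted p = 0.0166 against the pool and 0.0672 against vehicle). Crispld2, a secreted cysteine-rich protein, read 4.08 to 4.69 in the reference arrays (median 4.38) and 5.14, 7.30 and 6.61 with hPTH(1-34). Here hPTH(1-34) array 1 stood closest to the reference, and the rise was 3.96-fold (1.99 ± 0.37, adjusted p = 0.0448 and 0.0795).

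Procr, the endothelial protein C receptor, read 4.39 to 5.69 in the reference arrays and 6.94, 6.74 and 6.99 with hPTH(1-34), a rise of 3.15-fold. Thbd, thrombomodulin, the partner of that receptor in protein C activation, read 5.90 to 6.91 and then 7.96, 7.56 and 7.61, a rise of 2.55-fold. Both coagulation regulators were tight among the hPTH(1-34) arrays and spread in the reference. Tfrc, the transferrin receptor of iron uptake, rose 2.85-fold, from 3.54 to 4.23 in the reference to 4.80, 5.95 and 5.53. Got1, the cytosolic aspartate aminotransferase, rose 2.69-fold, from 5.43 to 6.25 in the reference to 6.93, 7.56 and 7.45. Sphk1, which makes sphingosine 1-phosphate, rose 2.53-fold, from 2.85 to 3.53 in the reference to 4.02, 4.84 and 4.92. Among receptors, the orphan receptor gene Gpr153 rose 2.81-fold (6.01 to 6.75 in the reference, 6.95, 8.02 and 8.25 after it) and the adhesion receptor gene Adgrd1 2.50-fold (5.39 to 6.51, then 7.20, 7.05 and 7.18). Smim3 (2.62-fold), the ubiquitin ligase gene Rnf125 (2.49-fold) and the mTORC2 subunit gene Prr5 (2.39-fold) complete the 15 largest rises with Camk4 and Gclc. Adjusted p of the 15 against the pool ran from 0.0166 (Rdh10) to 0.0489 (Adgrd1) in limma. Each of these 15 calls was lost without hPTH(1-34) array 2 and without hPTH(1-34) array 3, with adjusted p of up to 0.222 (Rnf125).

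**Figure D2:**
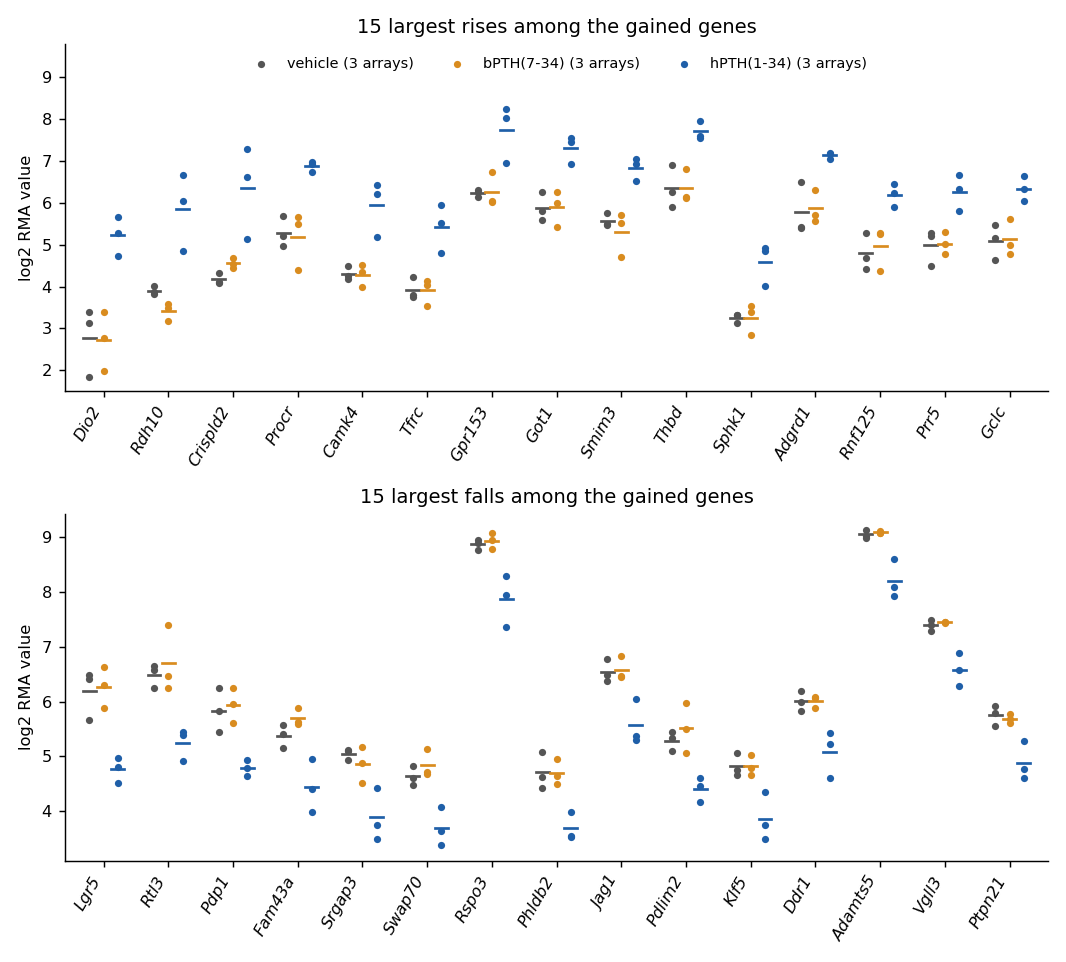
Log2 RMA values of the 15 largest rises (upper panel) and 15 largest falls (lower panel) among the gained genes, 1 point per array and a bar at each group's mean of 3 arrays. In every gene shown the 3 hPTH(1-34) points lie beyond all 6 reference points, from Dio2 (2.48) and Rdh10 (2.20) to Vgll3 and Ptpn21 (-0.84 each), and vehicle and bPTH(7-34) points intermix in most genes.

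Genes of the cAMP response were among the gained ones. Of 27 measured cAMP/CREB target genes, 7 rose and 0 fell against the pool, and 5 rose against vehicle. Of all genes tested 0.771% rose against the pool and 0.329% against vehicle. The median difference was 0.28 over the list against -0.003 over all genes. The 2 gained members were Nr4a1 and Nfil3. Nr4a1, an orphan nuclear receptor induced within minutes of a cAMP rise, read 4.19, 4.13 and 3.61 with vehicle, 3.83, 3.91 and 3.66 with bPTH(7-34), and 4.90, 4.71 and 5.11 with hPTH(1-34). The lowest hPTH(1-34) array stood 0.52 above the highest reference array. Its rise was 2.03-fold (1.02 ± 0.15, adjusted p = 0.0153 against the pool and 0.0606 against vehicle). Its relatives Nr4a2 (1.88 ± 0.18) and Nr4a3 (2.90 ± 0.20) passed against both references. Nfil3, a basic leucine zipper repressor, read 5.35, 5.47 and 5.47 with vehicle, 4.87, 5.33 and 4.84 with bPTH(7-34), and 5.75, 6.20 and 6.06 with hPTH(1-34). The bPTH(7-34) arrays lay below all 3 vehicle arrays, and Nfil3 gave 0.57 ± 0.16 (adjusted p = 0.227) against vehicle, 0.99 (adjusted p = 0.0354) against bPTH(7-34) and 0.78 ± 0.14 (adjusted p = 0.0316) against the pool.

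In the list of PTH receptor and cAMP pathway genes, 2 of 43 rose and 0 fell, beside 0.771% and 0.361% of all genes tested. Sik3, a salt-inducible kinase that protein kinase A inhibits, read 5.41 to 5.87 in the reference arrays and 6.33, 6.50 and 6.46 with hPTH(1-34). Its rise was 1.75-fold (0.81 ± 0.13, adjusted p = 0.0216 and 0.0653 against vehicle). The other member, the receptor partner Ramp3, passed against both references (2.58 ± 0.31), with adjusted p of up to 0.071 when single arrays were left out. The receptor gene itself, Pth1r, read 4.45 to 5.08 in the reference and 4.77, 4.29 and 4.01 with hPTH(1-34), and the groups overlapped (-0.46 ± 0.17, adjusted p = 0.315). Camk4, a calcium and calmodulin-dependent kinase that phosphorylates CREB, read 4.17, 4.50 and 4.26 with vehicle, 3.98, 4.35 and 4.51 with bPTH(7-34), and 5.18, 6.44 and 6.21 with hPTH(1-34). It rose 3.13-fold (1.65 ± 0.25, adjusted p = 0.0198 and 0.0577), while its dimmer cluster (mean 1.62, under the background limit of 1.68) gave 0.08. In the AP-1 list 1 of 25 genes rose, the gained Fosl2 (1.59-fold, 0.67 ± 0.12, adjusted p = 0.0388). Of the gained genes of cAMP signalling, Nr4a1 kept its call in 7 of the 9 fits without a single array, all but those without hPTH(1-34) arrays 2 and 3 (adjusted p up to 0.0957). Without either of these arrays Nfil3, Sik3, Camk4 and Fosl2 did not pass, with adjusted p of up to 0.174 (Fosl2).

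Promoters were read for the letters of the cAMP response element, TGACGTCA, and of its core TGACG, on both strands of RefSeq windows (GRCm38.p6) from 250 bases before to 50 bases after each start. A TGACG inside the longer element counts as a match of both. A window was at hand for 72 of the 99 gained genes that rose and for 34 of the 48 that fell. The core was in 43.1% of the gained genes that rose (31 of 72) and in 17.6% of those that fell (6 of 34). The same shares were 47.4% and 20.8% for genes that rose and fell against both references. They stand beside 26.8% of all genes tested and 36.8% of genes that did not pass and had a reference mean of at least 5. Counted by window, the core was in 33.3% for the gained rises and 11.8% for the gained falls. The shares by window were 24.2% for all genes tested and 32.8% for genes that did not pass with that mean. Median GC content was 62.3% in the windows of the gained rises, 57.3% in those of the gained falls and 56.7% over all genes. It was 62.3% for genes that did not pass with that mean, and 61.3% and 64.0% for rises and falls past both references. Base composition thus differed between some of these sets as well. The whole element was in 3 of the 72 (4.17%), namely Dio2, Elovl5 and Gm16062. This stands beside 2.65% of all genes tested and 3.23% of genes that did not pass with a reference mean of at least 5. Counted by window, the same 3 shares were 3.03%, 2.32% and 2.83%. The NR4A element AAAGGTCA was in 0 of the 72 gained rises and 0 of the 34 gained falls with a window, against 1.54% of all genes tested. A match describes letters and is no evidence of binding. Stretches are shown for Dio2, the largest gained rise, Hk2, a metabolic rise with 1 core, Jag1, a fall with 1 core, and Nr4a1, which holds 4 cores, all 5′ to 3′ on the gene's strand with matched letters in capitals.
Dio2, chr12:90739039-90739288, minus strand: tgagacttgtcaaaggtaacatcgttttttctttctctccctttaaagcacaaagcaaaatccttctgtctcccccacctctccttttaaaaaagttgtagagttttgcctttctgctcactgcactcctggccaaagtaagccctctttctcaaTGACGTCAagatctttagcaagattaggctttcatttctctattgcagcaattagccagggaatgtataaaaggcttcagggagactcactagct
Hk2, chr6:82774455-82774704, minus strand: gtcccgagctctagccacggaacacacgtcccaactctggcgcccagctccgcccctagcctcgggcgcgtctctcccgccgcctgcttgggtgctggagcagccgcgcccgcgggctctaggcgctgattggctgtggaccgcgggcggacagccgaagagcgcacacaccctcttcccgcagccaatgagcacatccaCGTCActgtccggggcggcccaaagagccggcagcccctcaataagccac
Jag1, chr2:137116521-137116770, minus strand: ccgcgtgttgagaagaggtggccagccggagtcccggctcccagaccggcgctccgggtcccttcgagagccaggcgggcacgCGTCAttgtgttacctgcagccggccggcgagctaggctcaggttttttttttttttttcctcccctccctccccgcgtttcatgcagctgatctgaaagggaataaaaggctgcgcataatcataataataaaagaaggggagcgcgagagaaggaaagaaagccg
Nr4a1, chr15:101266764-101266793, plus strand: gccgggccgtgtgCGTCAgtggcgcccccg
Nr4a1, chr15:101266794-101266823, plus strand: cccctctccatgCGTCAcggagcgcttaag
In Dio2 the whole element begins 95 bases before the start, and in Hk2 and Jag1 the core begins 50 and 167 bases before it. Sik3 holds 3 cores and Sphk1 2, each position counted once where windows of a gene overlap, and Tfrc, Alpl, Nfil3, Vegfa and Procr hold 1 each.

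Genes of metabolism and stress responses were among the gained rises, against a share of 0.771% of all genes tested that rose against the pool. Hk2, a hexokinase of the first step of glycolysis, read 4.62, 4.16 and 4.38 with vehicle, 4.46, 4.70 and 3.96 with bPTH(7-34), and 5.28, 5.46 and 5.44 with hPTH(1-34). The hPTH(1-34) arrays agreed within 0.2 log2 units and lay above all others, and the rise was 2.02-fold (1.01 ± 0.16, adjusted p = 0.0238 and 0.0661 against vehicle). Among 22 glycolysis and PDK genes 1 rose and 1 fell against the pool, where 0.361% of all genes tested fell. Gclc, the catalytic subunit of the enzyme that limits glutathione synthesis, read 4.64 to 5.61 in the reference and 6.65, 6.33 and 6.04 with hPTH(1-34), a rise of 2.35-fold (adjusted p = 0.0445 and 0.103). It was 1 of 3 rises among 14 NRF2 antioxidant genes, where 11 differences were positive and the median was 0.38. Hypoxia and HIF targets gave 2 rises of 16, both gained, Vegfa and Ddit4, an inhibitor of mTORC1 (1.91-fold, 0.93 ± 0.14). Of 23 unfolded protein and ATF4 response genes 2 rose, Ddit4 again and Xbp1, a transcription factor of secretory cells (1.42-fold, 0.51 ± 0.10). The cochaperone gene Bag3 rose 1.65-fold (0.72 ± 0.14, adjusted p = 0.0469 and 0.149 against vehicle), 1 of 2 rises among 16 heat shock and chaperone genes. In the cholesterol synthesis list, where 5 of 18 differences were positive and the median was -0.14, 2 genes rose, 1 of them the gained Hsd17b7 (1.46-fold). Of the circadian genes 2 of 19 rose, Nfil3 and Bhlhe40, a clock repressor (1.65-fold, 0.72 ± 0.11). These calls were lost without hPTH(1-34) array 2 or 3, with adjusted p of up to 0.224 (Xbp1).

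The ribosome biogenesis list had 4 gained rises of 25 measured genes, 0 falls, and 0 calls against vehicle. Gained rises made up 0.446% of all genes tested. Nop56, a core protein of box C/D small nucleolar ribonucleoproteins, read 5.69 to 5.93 in the reference and 6.34, 6.97 and 6.99 with hPTH(1-34). The 6 reference arrays spanned 0.24 log2 units, and the rise was 1.93-fold (0.95 ± 0.14, adjusted p = 0.0196 and 0.0511). Dimmer Nop56 clusters, with means of 1.81 and 2.14, gave 0.26 and 0.15. Nop2, a 28S rRNA methyltransferase, read 5.25 to 6.08 and then 6.35, 6.84 and 7.07, a rise of 2.03-fold. Polr1a, the largest subunit of RNA polymerase I, rose 1.53-fold (0.61 ± 0.11, adjusted p = 0.0365 and 0.132), and Wdr43, a small-subunit processome protein, rose 1.59-fold (0.67 ± 0.12, adjusted p = 0.0429 and 0.0949). In 24 of the 25 genes the difference was positive, with a median of 0.37 against -0.003 over all genes tested. Members that did not pass included Gnl3 (0.76), Rrp12 (0.67) and Nop58 (0.59) at the upper end and Npm1 (0.01) at the lower. The 4 calls were lost without hPTH(1-34) array 2 or 3 (adjusted p up to 0.194, Nop2).

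Retinoid genes gave 2 gained rises of 18, beside 0.446% of all genes tested, and 0 calls against vehicle. Besides Rdh10 this was Crabp2, a carrier of retinoic acid to its receptors, which read 7.22 to 7.79 in the reference and 8.18, 8.19 and 8.56 with hPTH(1-34). The Crabp2 rise was 1.69-fold (0.76 ± 0.13, adjusted p = 0.0315 and 0.119), and without hPTH(1-34) array 2 or 3 it did not pass (adjusted p up to 0.141). Other members did not pass in either direction, among them the retinaldehyde dehydrogenases Aldh1a3 (1.5) and Aldh1a2 (-0.68).

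The falls included receptors and ligands of Wnt and Notch signalling. Of 46 measured Wnt ligands, receptors and antagonists 4 fell and 0 rose against the pool, beside 0.361% and 0.771% of all genes tested. From these 4, Rspo2 alone fell against vehicle as well. The gained members were Lgr5, Rspo3 and Fzd2. Lgr5, a receptor for R-spondins and a marker of stem cells in other tissues, read 5.67, 6.41 and 6.48 with vehicle, 5.88, 6.30 and 6.63 with bPTH(7-34), and 4.80, 4.51 and 4.97 with hPTH(1-34). It was lower in all hPTH(1-34) arrays, 2.77-fold on average (-1.47 ± 0.22, adjusted p = 0.0173 against the pool and 0.0539 against vehicle), and its dimmer cluster (mean 2.13) gave -0.25. Rspo3, a secreted R-spondin that enhances Wnt signals, read 8.76, 8.89 and 8.95, then 8.78, 8.95 and 9.07, and with hPTH(1-34) 8.30, 7.95 and 7.36. The reference arrays spanned 0.31 log2 units and the hPTH(1-34) arrays more, and the fall was 2.04-fold (-1.03 ± 0.18, adjusted p = 0.0315 and 0.0953). Its relative Rspo2 gave -1.54 ± 0.20 (adjusted p = 0.0112 against the pool, and up to 0.0832 without hPTH(1-34) array 2 or 3). Fzd2, a Wnt receptor, fell 1.5-fold, from 5.44 to 5.59 in the reference to 5.19, 4.90 and 4.71. The median of the list was 0.01, and members that did not pass ranged from Fzd5 (-1.34) to Ror1 (0.61).

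Of 18 Notch genes 2 fell against the pool, beside 0.361% of all genes tested, 0 rose, and 0 passed against vehicle. Jag1, a Notch ligand, read 6.38, 6.77 and 6.49 with vehicle, 6.47, 6.44 and 6.83 with bPTH(7-34), and 6.04, 5.38 and 5.29 with hPTH(1-34). Array 1 of hPTH(1-34) lay 0.34 below the lowest reference array, and the other two lay about 1 log2 unit below it. The Jag1 fall was 1.99-fold (-0.99 ± 0.18, adjusted p = 0.0365 and 0.101 against vehicle). Maml2, a coactivator of Notch transcription complexes, fell 1.55-fold (-0.64 ± 0.12, adjusted p = 0.0484 and 0.101). The Notch target genes Hes1 (0.10), Hey1 (-0.21) and Heyl (0.34) did not pass. All 5 of these Wnt and Notch calls were lost without hPTH(1-34) array 2 or 3, with adjusted p of up to 0.225 (Maml2).

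Of the other falls, Pdp1, a phosphatase that activates pyruvate dehydrogenase, was 2.14-fold lower (5.44 to 6.25 in the reference, 4.65, 4.93 and 4.79 with hPTH(1-34)). Rtl3, a retrotransposon-derived gene, was 2.54-fold lower, Fam43a 2.13-fold and the Rac GTPase-activating gene Srgap3 2.08-fold. Swap70, an actin-binding signalling protein, fell 2.06-fold, Phldb2, a cortical protein of adhesion sites, 2.03-fold, and the actin-associated Pdlim2 1.98-fold. Klf5, a zinc finger transcription factor, fell 1.95-fold, from 4.66 to 5.06 in the reference to 4.35, 3.74 and 3.50. Ddr1, a collagen receptor kinase, fell 1.90-fold. A dimmer cluster of it, with a mean of 1.23 under the background limit of 1.68, gave 0.16. Vgll3, a cofactor of TEAD factors, read 7.28 to 7.49 in the reference and 6.89, 6.57 and 6.28 with hPTH(1-34). This fall of 1.79-fold (-0.84 ± 0.12, adjusted p = 0.0173 and 0.0544) stood in 6 of the 9 fits without an array. Ptpn21, a tyrosine phosphatase, also fell 1.79-fold. Arhgap28 fell 1.43-fold. Without hPTH(1-34) array 3 each of these calls was lost, and without array 2 each except Srgap3, with adjusted p of up to 0.22 (Klf5 and Pdlim2).

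Matrix proteases moved in both directions. Adamts5, an aggrecanase, read 9.14, 8.99 and 9.03 with vehicle, 9.12, 9.07 and 9.07 with bPTH(7-34), and 8.61, 8.09 and 7.92 with hPTH(1-34). It fell 1.82-fold (-0.86 ± 0.14, adjusted p = 0.0230 and 0.0662 against vehicle). Adamts4, the other main aggrecanase, read 5.48, 5.14 and 5.39, then 5.37, 5.46 and 4.96, and with hPTH(1-34) 6.06, 6.34 and 6.77. It rose 2.13-fold (1.09 ± 0.17, adjusted p = 0.0214 and 0.0662), so the 2 enzymes lay on opposite sides of the reference. Adamts9, a versican-cleaving member of the family, rose 1.88-fold, from 6.57 to 6.85 in the reference to 7.22, 7.72 and 7.83 (0.91 ± 0.14, adjusted p = 0.0176 and 0.0511). Over the list of 25 proteases and inhibitors 3 rose and 1 fell against the pool, beside 0.771% and 0.361% of all genes tested. Against vehicle 1 rose, and the median against the pool was -0.02.

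The gained genes included Alpl, Vegfa, Nrp2, Fgf10 and Fst from the lists of bone and growth factor genes, beside 0.663% of all genes tested that were gained. Alpl, the tissue-nonspecific alkaline phosphatase of mineralisation, read 5.26, 5.86 and 5.39 with vehicle, 5.32, 5.62 and 5.51 with bPTH(7-34), and 6.32, 6.73 and 6.38 with hPTH(1-34). All 3 hPTH(1-34) arrays were higher, by 1.98-fold on average (0.98 ± 0.15, adjusted p = 0.0196 and 0.0577), and a dimmer Alpl cluster (mean 2.84) gave 0.62 (adjusted p = 0.179). It was the 1 call against the pool among 21 osteoblast differentiation and matrix genes, beside 1.13% of all genes tested. Col1a1 gave 0.01 ± 0.09. Vegfa, the angiogenic growth factor, read 5.79, 5.43 and 5.22, then 5.79, 5.02 and 5.26, and with hPTH(1-34) 6.58, 6.56 and 6.52. Its hPTH(1-34) arrays lay within 0.1 log2 units of each other, and the rise was 2.20-fold (1.14 ± 0.17, adjusted p = 0.0196 and 0.0661). Nrp2, a receptor of VEGFs and class 3 semaphorins, fell 1.61-fold, from 8.88 to 9.21 in the reference to 8.61, 8.39 and 8.17. Fgf10, a fibroblast growth factor of low level here, rose 1.7-fold, from 2.58 to 3.00 in the reference to 3.95, 3.42 and 3.49, and its other cluster (mean 2.96) gave 0.34. Of 41 FGF, EGF, VEGF and PDGF genes 3 rose and 1 fell against the pool, beside 0.771% and 0.361% of all genes tested. Fst, the activin antagonist follistatin, fell 1.47-fold (-0.55 ± 0.09, adjusted p = 0.0307 and 0.127). Its TGF-beta and BMP list of 44 had 1 rise and 2 falls against the pool, beside 0.771% and 0.361% of all genes tested. The calls of Alpl, Vegfa, Nrp2, Fgf10 and Fst and the gained protease calls were lost without hPTH(1-34) array 2 or 3, with adjusted p of up to 0.146 (Nrp2).

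**Figure D3:**
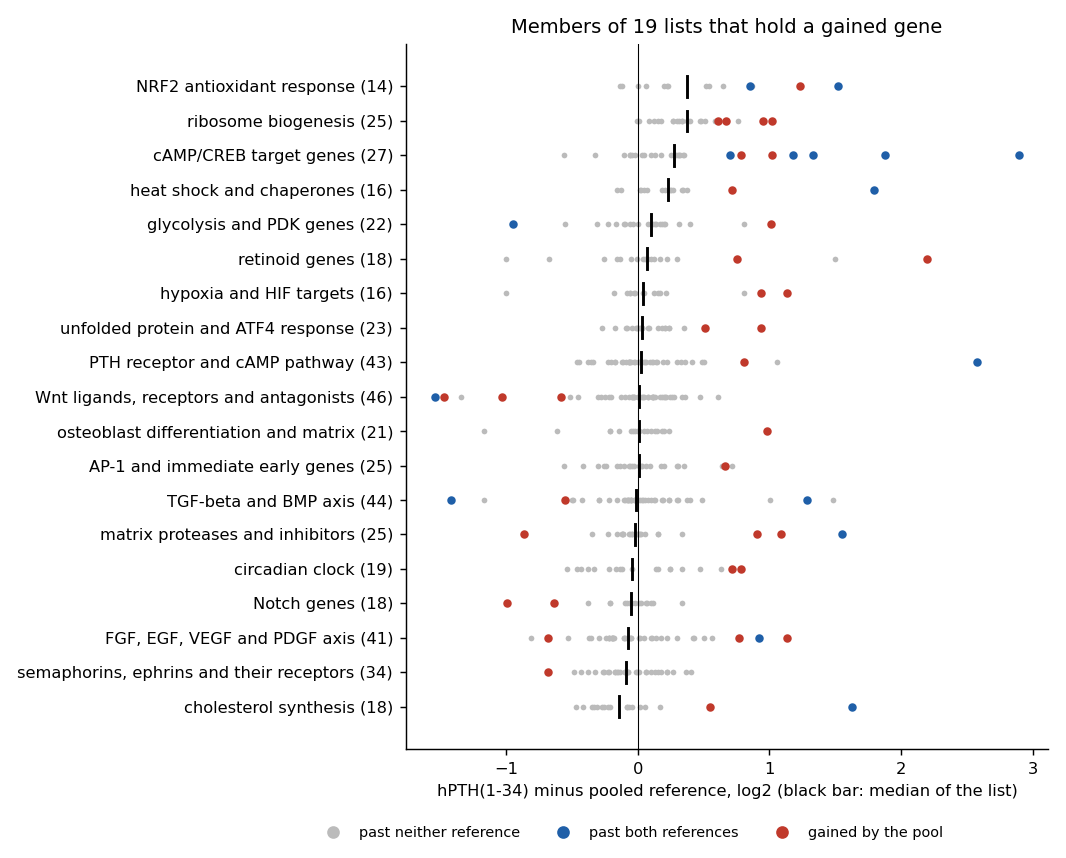
Log2 difference of hPTH(1-34) against the pool for every measured member of 19 of the 20 lists that hold a gained gene, with the number of members in brackets and a black bar at the median. Medians run from -0.14 (cholesterol synthesis) to 0.38 (NRF2 antioxidant response), against -0.003 over all genes, and most members (grey) did not pass.

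In all, 48 lists named 1089 genes, of which 1008 were measured. Of these, 72 passed against the pool and 31 were gained, 22 higher and 9 lower. Of all genes tested 1.13% passed against the pool and 0.663% were gained. Gained genes had a median level of 5.62 and all genes 2.21, and list counts were not set beside genes of similar level. The lists were written with earlier results of these data known, so their counts are descriptions. Of the genes named for their known place in the PTH response, those past both references included Tnfsf11, which encodes RANKL (5.4-fold, 2.43 ± 0.37, adjusted p = 0.0198), and the vitamin D receptor gene Vdr (4.42-fold, 2.15 ± 0.19, adjusted p = 0.00355). Without vehicle array 2, or hPTH(1-34) array 2 or 3, the Tnfsf11 call was lost (adjusted p up to 0.121). The RANKL decoy receptor gene Tnfrsf11b gave -0.30 ± 0.14 (adjusted p = 0.479) against the pool. It gave -0.07 against vehicle and -0.53 against bPTH(7-34). Il6 read 5.91 to 7.97 in the reference and 8.81, 8.74 and 8.79 with hPTH(1-34), and the 3 were higher than all others (1.48 ± 0.36, adjusted p = 0.112). Without bPTH(7-34) array 3, its lowest reference value, Il6 passed (adjusted p = 0.0218), as it did without bPTH(7-34) array 2 (adjusted p = 0.0468).

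The remaining 89 gained genes were 61 with differences of 0.43 to 1.19 (median 0.73) and 28 with differences of -0.90 to -0.35 (median -0.60). Just inside the threshold stood Eya3, a phosphatase and transcription cofactor (0.40), Dnajc12, a cochaperone (0.92), and Ddx56, a nucleolar helicase (0.66), each at adjusted p = 0.0489. Just outside stood Sorbs2 (-0.77), Cluh (0.55) and Klf10 (0.64), at 0.0502 to 0.0503. The 2 lost genes were Ctu1, a tRNA thiolation enzyme, and Olfr706, an olfactory receptor. Ctu1 gave 0.63 (adjusted p = 0.0445) against vehicle and 0.45 (adjusted p = 0.0607) against the pool, with bPTH(7-34) arrays at 3.89, 3.89 and 3.72 between vehicle (3.67, 3.40 and 3.34) and hPTH(1-34) (4.11, 4.13 and 4.07). Olfr706 gave -0.66 (adjusted p = 0.0354) against vehicle and -0.35 (adjusted p = 0.139) against the pool, and all of its array values but 1 lay under the background limit.

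The pool changed 3 quantities in the test. Averaging 6 reference arrays in place of 3 lowered each standard error to 0.866 of its value against vehicle, so the median half-width of the 95% intervals over all genes fell from 0.30 to 0.26. More small p-values moved the unadjusted p that corresponds to an adjusted 0.05 from 0.000227 to 0.000553. The mean of the reference changed by as much as bPTH(7-34) differed from vehicle divided by 2. Of the 147 gained genes, 58 had an unadjusted p against vehicle already under the limit of the pool. With the vehicle difference and the smaller error, 68 passed the stricter limit and 117 the limit of the pool, and the other 30 needed the bPTH(7-34) mean. These 30 include Nfil3, Rtl3, Fam43a, Pdlim2, Bag3, Fst, Polr1a and Eya3. The difference was larger against the pool than against vehicle in 84 genes and smaller in 63. Between bPTH(7-34) and vehicle the 147 genes differed by -0.48 (Rdh10) to 0.52 (Dnajc12), with a median size of 0.08, and 6 had an unadjusted p under 0.05. Against bPTH(7-34) alone 25 of the 147 passed, as did 83 of the 104, so 122 gained genes passed against neither group of 3 arrays. Whether a gained gene differs more from the pool than from vehicle comes down to the bPTH(7-34) and vehicle means, between which 0 genes passed in limma, with 727 at an unadjusted p under 0.05.

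**Figure D4:**
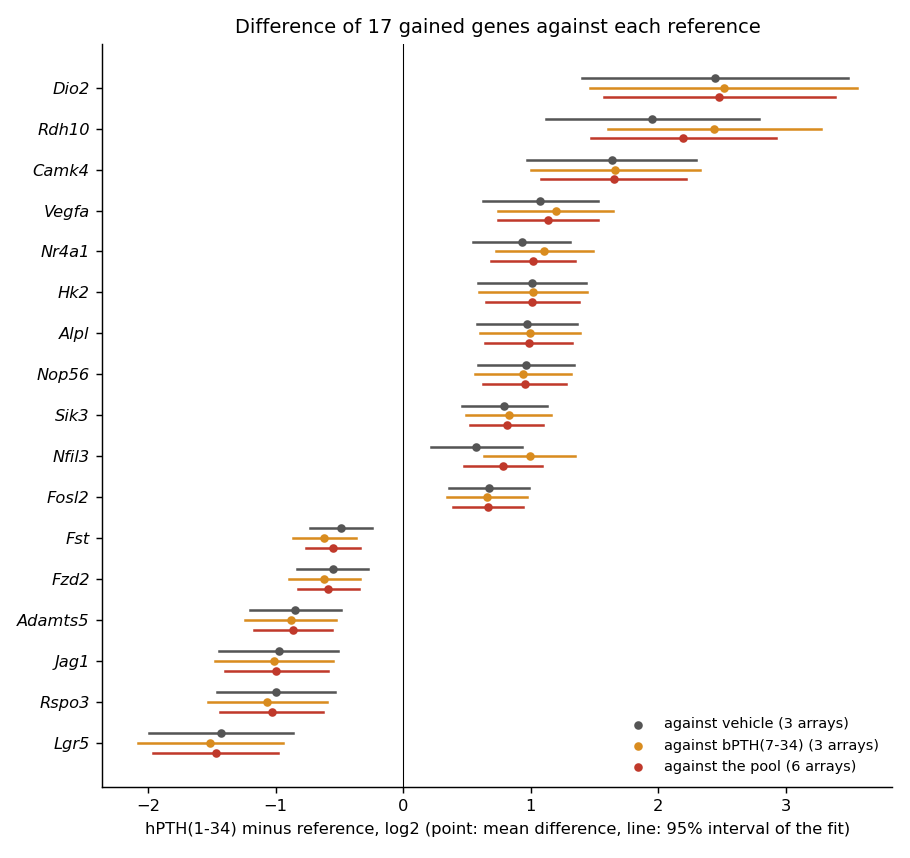
Mean log2 difference (point) and 95% interval (line) of hPTH(1-34) against vehicle, bPTH(7-34) and the pool for 17 of the gained genes. The 3 points of a gene lie close together, except in Rdh10 and Nfil3, and the interval against the pool is the shortest, as in Dio2, where it runs from 1.58 to 3.38 against 1.4 to 3.49 for vehicle.

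The number of calls rested on single arrays. Without hPTH(1-34) array 1 it rose to 420 against the pool and 275 against vehicle, and without array 2 or 3 it fell to 28 and 36 against the pool and to 3 and 8 against vehicle. Of the 147 gained genes 111 passed against the pool without array 1, 1 without array 2 and 0 without array 3. Without vehicle array 1, 2 or 3, 80, 9 and 16 of the 147 passed, and without bPTH(7-34) array 1, 2 or 3, 58, 35 and 35. The total without vehicle array 2 was 87 against the pool and 0 against vehicle, with 1720 at an unadjusted p under 0.05 in limma, and without vehicle array 3 it was 107 and 1. In every one of these 9 fits all 147 kept an unadjusted p under 0.05 (at most 0.00412), though they had been chosen on the same arrays. In 109 of the 147 gained genes hPTH(1-34) array 1 was the one nearest to the reference mean, at a median distance of 0.56 log2 units, against 0.84 for array 2 and 0.90 for array 3. For the 104 genes past both references array 1 was nearest in 87. Whether this array's smaller distance bears on which genes were gained was not tested. When the adjustment ran over all 41345 transcript clusters, 1 of the 147 passed against the pool.

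**Figure D5:**
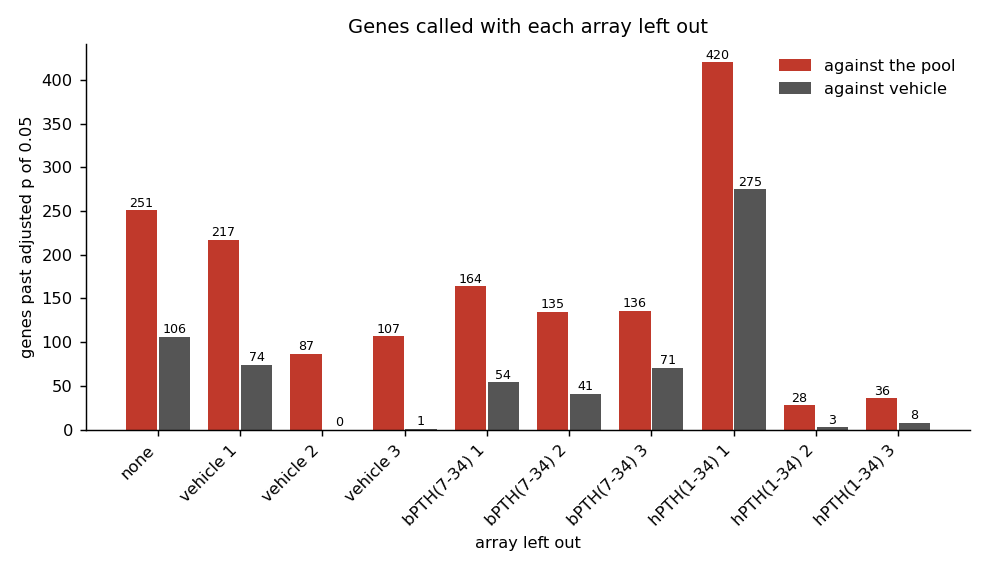
Number of genes at an adjusted p under 0.05 against the pool (red) and against vehicle (grey) with all 9 arrays and with each array left out. The pool gave the higher count in each fit, from 28 without hPTH(1-34) array 2 to 420 without hPTH(1-34) array 1, and against vehicle the count ran from 0 to 275.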

How the data were processed

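RNA levels were measured on 9 Affymetrix Mouse Gene 2.0 ST arrays, 3 each with vehicle, hPTH(1-34) and bPTH(7-34). The authors deposited 1 log2 value per transcript cluster and array, made with Affymetrix Expression Console and RMA per the submitters' processing notes, with no version given there. As a method, RMA summarises background-corrected and normalised probes, and differences of dim genes can be compressed by it. Of 41345 clusters, 23521 had exactly 1 gene symbol, 1814 several and 16010 none. The 1082 genes with several clusters were represented by their brightest cluster (by the mean of all 9 arrays), giving 22180 genes. A RefSeq table held 23328 of the 23521 by gene identifier, with 0 under another symbol.

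The tests came from limma 3.58.1 (R 4.3.3), with lmFit and eBayes run once on 3 group means over all 9 arrays (6 residual and 3.19 prior degrees of freedom), two-sided, with Benjamini-Hochberg adjustment over all genes within each of 4 comparisons at a threshold of 0.05. The pool is the mean of the vehicle and bPTH(7-34) means. Errors beside differences are standard errors of this fit, and fold values of falls are sizes. The script was tested on simulated data. Alternatives were another fit, the array number as a block, other sets of genes, other scalings, array weights, a 2-fold threshold and leaving out each array. Arrays of different treatments share the numbers 1 to 3, and no source used here says that a number marks a shared preparation, so the number entered as a block only as an alternative. Plots were drawn with matplotlib 3.10.9.

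The gained genes and the lists were chosen with earlier results of these data known. Named genes are the 15 largest gained rises and falls, gained members of lists, lost genes, the 5 largest rises and falls past both references, 3 genes on each side of the threshold, and 18 fixed genes, passing over predicted, clone-named, olfactory and small RNA genes among the largest. Runx2, Spp1 and Phospho1 were not analysed here, and 1 of the lists is not reported here.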

Additional observations from a re-analysis of the deposited data

Results flagged for a closer look

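Among the 81 named genes, the 6 reference arrays of 4 held a value far from the other 5 by Dixon's criterion, where chance gives about 1 in 20. Smim3 read 4.70 in bPTH(7-34) array 3, against 5.47 to 5.75 in the others. Rtl3 read 7.4 in bPTH(7-34) array 3, against 6.25 to 6.64. Il6 read 5.91 in bPTH(7-34) array 3, against 7.32 to 7.97. Arhgap28 read 5.58 in bPTH(7-34) array 1, against 5.80 to 5.87. Without the array named, the difference against the pool was 1.24 in Smim3 (adjusted p = 0.0162 in limma), -1.17 in Rtl3 (0.0269), 1.19 in Il6 (0.0218) and -0.56 in Arhgap28 (0.0453). With all arrays Smim3, Rtl3 and Arhgap28 passed as well, and Il6 did not (0.112).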

How the results depend on the processing

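Counts below are genes past the pool, past vehicle, past bPTH(7-34), gained and lost, and they were 251, 106, 112, 147 and 2 as reported. Over all transcript clusters they fell to 80, 16, 3, 65 and 1, and 72 of the 251 but only 1 of the 147 gained genes kept the call against the pool. At a mean log2 of at least 3 they were 380, 194, 218, 186 and 0, and at a mean of at least 5 they were 374, 181, 211, 193 and 0. Of the 147 gained genes, 50 and 11 were gained in these fits, and 136 of 136 and 95 of 95 still measured passed the pool. With array weights they were 402, 181, 207, 222 and 1, with 77 of the 147 among the gained, and with a 2-fold threshold 98, 59, 63, 43 and 4. With the 6 reference arrays as 1 group the pool called 323, of which 241 were among the 251, with 224 gained and 7 lost. With the array number as a replicate block the pool called 296, vehicle 121 and bPTH(7-34) 119, with 178 gained. Of the 147 gained genes 104 passed the pool in that fit and 86 were gained. With the number as a random block (correlation 0.066) the counts were 311, 131, 154, 181 and 1. Deviations of the 9 pairs with a shared number correlated at 0.06 to 0.37, 6 of them over 0.1, and those of other pairs at -0.30 to 0.15. In 8 of 9 cases an array correlated best with another of its own number. The exception was vehicle array 2, and the pairs of number 2 correlated at 0.06 to 0.08. What the number marks is not stated, so a shared preparation and a shared processing step cannot be told apart. Limma fits of the 6 arrays of 2 groups alone called 0 genes against vehicle (1835 at an unadjusted p under 0.05) and 0 against bPTH(7-34) (1978). Without single arrays the counts ran from 28 to 420 (pool), 0 to 275 (vehicle), 3 to 254 (bPTH(7-34)), 25 to 149 (gained) and 0 to 4 (lost). For the other settings (other clusters of a gene, both scalings, trended eBayes) the pool called 227 to 287 and 133 to 161 genes were gained. No named gene that passed changed direction in these settings. Over all named genes and settings, 1181 values stayed on the same side of the threshold, 538 no longer passed and 32 passed where they had not. Testing fewer or more genes changes the adjustment itself, and the cause of the other shifts was not tested. Signal near background limits Dio2 in the reference and the 5 genes under the background limit.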

Other observations

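The gained genes named here were chosen after their values were seen. Trpv4, a calcium-permeable channel of mechanically stimulated bone and cartilage cells, rose by 1.15 on the log2 scale, and Slc16a1, a lactate and pyruvate transporter, by 0.93. Star, which moves cholesterol into mitochondria, rose by 0.91, the fatty acid elongase gene Elovl5 by 0.87, and the oxysterol-binding protein gene Osbpl3 by 0.94. Nmrk1 and Nmnat2, enzymes of NAD synthesis, rose by 1.19 and 1.10. Rrn3 and Taf1a, initiation factors of RNA polymerase I, rose by 0.52 and 0.67, and Gtpbp4, a factor of large ribosomal subunit assembly, by 0.66. Among the falls, Lpar4, a receptor of lysophosphatidic acid, gave -0.82, the GATA cofactor gene Zfpm2 -0.82 and the homeobox gene Meox2 -0.64. Ctnnd1, the cadherin partner p120-catenin, gave -0.46. Each of these genes passed the pool at an adjusted p of 0.05 in limma and did not pass vehicle.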
